A study of Mus musculus with 7 samples.

Results

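The genes described here are those of DNA replication licensing: Mcm2, Mcm3, Mcm4, Mcm5, Mcm6, Mcm7, Cdt1, Cdc6, Gmnn and Pcna. They were taken as all probe sets whose platform gene symbol is one of these 10 names, which gave 25 of the 45101 probe sets on the array, and no further probe set carried a member name beside another symbol. The 7 arrays compare 5 RNA samples of calreticulin (CRT) knockout cells with 2 of wild type cells, both of the mouse embryonic stem cell line D3, an established line from a blastocyst. RNA was extracted from pooled cultures for each sample, labelled with biotin and hybridised to 1 Affymetrix mouse expression array. From the labels it is not known if 1 knockout clone or several were used, so a p-value here covers no more than the variation among the 7 samples, and no treatment is named. The question of the series is which transcripts differ once calreticulin, the Calr-encoded protein that holds calcium and helps glycoproteins fold in the endoplasmic reticulum, is missing.

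Licensing is the loading of the replicative helicase onto origins before S phase. The origin recognition complex binds the DNA, and Cdc6 and Cdt1 bring in the ring-shaped MCM helicase, which is built from the proteins of Mcm2 to Mcm7. Geminin, the product of Gmnn, binds Cdt1 once S phase has begun and so keeps an origin from being licensed again, and Pcna encodes the sliding clamp that holds the polymerases on the DNA and marks Cdt1 for destruction. Mouse embryonic stem cells divide fast with a short gap phase before S phase, and they keep high levels of these proteins. In many cell types the transcription of licensing genes is driven by E2F factors at the entry into S phase.

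Promoter windows from RefSeq (GRCm38.p6) were available for 8 of the 10 genes, with 9 start sites among them. They are shown because most of these genes lay in the same direction on the arrays, and because E2F-type sites are a known feature of the family. Whether such sites bear on that direction was not tested. The 250 bases before each start were searched on both strands for TTTCCCGC, TTTGGCGC, TTTGCCGC and TTTCGCGC, the letters of the classical E2F site, which may overlap one another. Mcm5, Mcm6, Mcm7 and Cdc6 held at least 1 match, that is 4 of 9 member windows, against 3.14% of 13528 windows of tested genes and 1.86% of all 32851 windows. The matches are in capitals below, read 5′ to 3′ along the gene's strand. A match on the opposite strand appears as its reverse complement, such as GCGGGAAA.
Mcm5, chr8:75109259-75109467, plus strand, from 250 to 42 bases before the start, outside any annotated gene: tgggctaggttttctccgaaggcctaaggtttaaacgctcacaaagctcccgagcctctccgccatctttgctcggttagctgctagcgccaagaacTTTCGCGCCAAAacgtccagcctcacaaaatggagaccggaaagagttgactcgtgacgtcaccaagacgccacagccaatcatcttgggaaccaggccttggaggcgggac
Mcm6, chr1:128359706-128359955, minus strand, from 250 bases to 1 base before the start, outside any annotated gene: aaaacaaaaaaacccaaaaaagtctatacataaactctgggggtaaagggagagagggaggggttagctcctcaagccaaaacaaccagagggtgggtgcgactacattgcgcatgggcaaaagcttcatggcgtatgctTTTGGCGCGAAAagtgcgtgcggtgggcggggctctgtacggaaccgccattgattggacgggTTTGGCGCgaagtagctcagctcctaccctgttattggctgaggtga
Mcm7, chr5:138172030-138172059, minus strand, 30 bases around the match, inside the annotated extent of Mcm7 and of its divergent neighbour Ap4m1: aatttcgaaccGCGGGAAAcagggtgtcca
Cdc6, chr11:98908002-98908031, plus strand, 30 bases around the match, inside the annotated extent of Cdc6: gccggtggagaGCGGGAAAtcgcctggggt

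In Mcm5 the match was a pair on opposite strands that share 4 letters, and Mcm6 held such a pair and a further match nearer to its start. The windows of Mcm2, Mcm3, Cdt1 and Pcna held none of these letters, which says nothing on whether E2F binds there. CCAAT, on either strand, was found in 7 of the 9 member windows, against 34.9% of the windows of tested genes. The letters are a description of the windows and not of binding in these cells.

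Before the comparison, the arrays themselves were examined. Calr, the targeted gene, had a signal of 912 ± 205 in knockout arrays (SD, n = 5) and of 11649.8 ± 1146 in wild type arrays (SD, n = 2), a log2 difference of -3.68 (limma adjusted p = 0.00531). With wild type array 1 or 2 left out the Calr difference was -3.58 or -3.78, with limma adjusted p of 0.176 and 0.136. All 10 stem cell markers had signals of at least 1230 on every array, and the array medians ran from 92.6 to 124.9. Knockout arrays 2 and 3 stood apart from the rest. They correlated with each other at 0.985 over the tested probe sets, which are not independent, and with the other arrays at 0.843 to 0.902. The differences of the members below are therefore also given without them, as are those of other named genes where they move by over 1.5 times.

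The licensing genes lay lower in knockout than in wild type arrays in nearly every case, by amounts that did not pass the test. On the log2(signal + 20.2) scale, 9 of the 10 genes had a negative difference, where 50.3% of the 13120 genes tested did. The median difference of the 10 genes was -0.41, and that of all genes was 0.00 to 2 decimals (-0.00414). With limma and Benjamini-Hochberg adjustment over all genes, 0 of the 10 members passed an adjusted p of 0.05, a threshold passed by 2 genes or 0.0152% of those tested. Their adjusted p ran from 0.589 to 0.940, and at an unadjusted p under 0.05 only Cdc6 was lower and no member higher, where 3.4% of all genes were lower and 4.66% higher.

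For 6 members (Mcm2, Mcm5, Mcm6, Mcm7, Cdt1 and Cdc6) all 5 knockout arrays were below both wild type arrays, and this held for 7.44% of all genes. No member had all knockout arrays above both wild type arrays, which held for 6.41% of all genes. The count rests on narrow gaps in some genes and on the scaling of the arrays: after quantile normalization it was 2 of 10 (Mcm2 and Cdc6), against 9.46% of all genes, and after centring on array medians it was 5 of 10, against 10.8%. Without knockout arrays 2 and 3 it was the same 6 of 10, against 10.9% of all genes. These 6 could not drop out when knockout arrays were removed, so this count is no check on arrays 2 and 3. In bulk RNA, fewer cells in a given phase and less transcript per cell cannot be told apart.

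**Figure D1:**
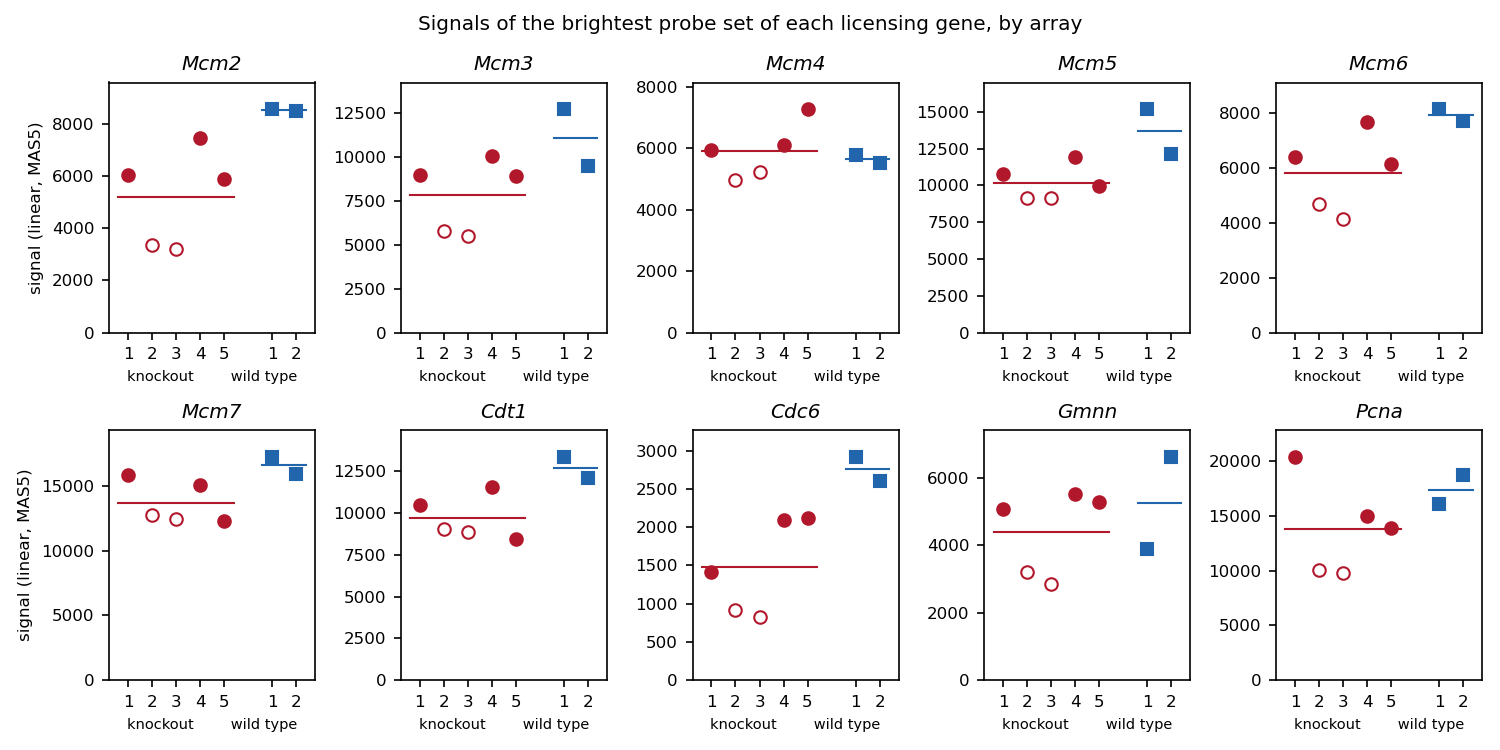
Deposited signal (linear scale, axis from 0) of the brightest probe set of each of the 10 licensing genes on each array; red circles are the 5 knockout arrays, with arrays 2 and 3 open, blue squares are the 2 wild type arrays, and lines are group means. In 6 panels (Mcm2, Mcm5, Mcm6, Mcm7, Cdt1 and Cdc6) every circle lies below both squares, while in Mcm3, Mcm4, Gmnn and Pcna the groups overlap.

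Among the helicase subunits, Mcm2, whose protein sits at the gate of the ring beside that of Mcm5, had the largest difference. Its brightest probe set (1434079_s_at, chromosome 6) had signals of 6046, 3364, 3225, 7467 and 5909 on knockout arrays 1 to 5, against 8568 and 8504 on wild type arrays. All knockout arrays were lower, with array 4 nearest to the wild type pair. The knockout mean was 60.9% of the wild type mean and the log2 difference was -0.79 (SE 0.36, 95% interval -1.59 to 0.01, limma adjusted p = 0.589). Without knockout arrays 2 and 3 the difference was -0.41 (adjusted p = 0.770).

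Mcm5 and Mcm6 were also lower on every knockout array. Mcm5 (1436808_x_at) lies on chromosome 8, as Calr and the member Cdt1 do. Its signals were 10742, 9141, 9142, 11946 and 9986 on knockout arrays, against 15164 and 12162 on wild type arrays. Mcm6 (1416251_at, chromosome 1) had 6393, 4681, 4133, 7671 and 6124 on knockout arrays, against 8126.5 and 7688 on wild type arrays. In both genes knockout array 4 was the nearest to the wild type pair, and in Mcm6 it lay just under wild type array 2. The differences were -0.42 for Mcm5 (SE 0.21, adjusted p = 0.589 with limma) and -0.48 for Mcm6 (SE 0.28, adjusted p = 0.590). They were -0.32 for Mcm5 and -0.24 for Mcm6 without knockout arrays 2 and 3 (limma adjusted p = 0.770 and 0.800).

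Mcm7 (1438320_s_at, chromosome 5), part of the catalytic core of the helicase, had the smallest difference among the subunits whose groups did not overlap. Its signals were 15871, 12730.5, 12459, 15106 and 12325 on knockout arrays, against 17252.5 and 15958 on wild type arrays. The knockout mean was 82.5% of the wild type mean, a log2 difference of -0.28 (SE 0.19, limma adjusted p = 0.611), and -0.21 without knockout arrays 2 and 3 (adjusted p = 0.806). Knockout array 1 lay just under wild type array 2; the gap was narrower than the distance between the wild type arrays.

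Mcm3 and Mcm4 overlapped between the groups. Mcm3 (1420028_s_at, chromosome 1) had 8965, 5795, 5486, 10020.3 and 8909 on knockout arrays, against 12686 and 9445 on wild type arrays, and knockout array 4 exceeded wild type array 2. Its log2 difference was -0.52 (SE 0.30, adjusted p = 0.590), and -0.24 without knockout arrays 2 and 3 (adjusted p = 0.802). Mcm4 (1436708_x_at, chromosome 16), whose product is another subunit with helicase activity, was the exception in direction. Its signals were 5956, 4964, 5237, 6115 and 7275 on knockout arrays, against 5786 and 5524 on wild type arrays, a difference of 0.05 (SE 0.23, limma adjusted p = 0.940) that became -0.07 when arrays were centred on their medians and 0.20 after quantile normalization. Knockout arrays 2 and 3 were below the wild type pair there, and arrays 1, 4 and 5 above it.

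The helicase loader Cdc6 had the largest difference of the 10 genes. Its only probe set (1417019_a_at, chromosome 11) had 1417, 913, 822, 2099 and 2120 on knockout arrays, against 2923 and 2611 on wild type arrays. No knockout array reached the wild type pair, and knockout arrays 4 and 5 were the nearest. The knockout mean was 53.3% of the wild type mean, and the log2 difference was -1.005 (SE 0.41, 95% interval -1.93 to -0.08, unadjusted p = 0.0366 and adjusted p = 0.589 with limma). Without knockout arrays 2 and 3 it was 67.9% of the wild type mean and -0.58 (adjusted p = 0.770).

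Cdt1, the second loader, differed less. The brighter probe set (1424143_a_at, chromosome 8) had 10502, 9042, 8871, 11539.5 and 8417 on knockout arrays, against 13366 and 12079 on wild type arrays. All knockout arrays were lower, and the lowest was array 5, not array 2 or 3. The difference was -0.40 (SE 0.21, limma adjusted p = 0.589), and -0.34 without arrays 2 and 3 (adjusted p = 0.770).

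Gmnn, which encodes the Cdt1 inhibitor geminin, did not separate the groups. Its probe set (1417506_at, chromosome 13) had 5075, 3208, 2842, 5516 and 5285 on knockout arrays, against 3880.1 and 6632 on wild type arrays. The wild type pair lay further apart on the log2 scale than for the brightest probe set of any other member, with knockout arrays 1, 4 and 5 between them. The difference was -0.26 (SE 0.35, adjusted p = 0.782), and 0.06 without knockout arrays 2 and 3 (adjusted p = 0.963). The 95% interval over all arrays, -1.05 to 0.53, holds differences of either sign.

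Pcna, the sliding clamp, overlapped as well. Its probe set (1417947_at, chromosome 2) had 20395, 10049, 9802.5, 15002 and 13897.5 on knockout arrays, against 16080.1 and 18729 on wild type arrays. Knockout array 1 was the highest of the 7 and arrays 2 and 3 the lowest. The difference was -0.38 (SE 0.29, adjusted p = 0.646), and -0.10 without arrays 2 and 3 (adjusted p = 0.915).

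The further probe sets of the same genes gave a second reading. Of the 25 probe sets, 23 had a mean above the signal filter. Of these, 22 had a negative difference, where 44.1% of the 27022 probe sets tested did, and 9 had all knockout arrays below both wild type arrays, where 5.85% did. Of the tested member probe sets 0 had all knockout arrays above both wild type arrays, where 7.8% did. Without knockout arrays 2 and 3, 9 lay below both, where 8.99% did, a count that could not fall when knockout arrays were removed. With limma 0 of the 23 passed the adjusted threshold, which 8 or 0.0296% of all probe sets passed (5 or 0.0185% lower in knockout), and 1 had an unadjusted p under 0.05. Probe sets of 1 gene read the same transcript and are not separate observations.

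In all members with several tested probe sets but Mcm4, these had a negative difference, of unequal size. The 5 Mcm3 probe sets differed by -0.78 to -0.29, and the 3 of Mcm5 by -0.60 to -0.42. The 4 of Mcm7 ran from -0.48 to -0.16. The 2 tested Cdt1 probe sets differed by -0.46 and -0.40, and both had every knockout array below the wild type pair. In the second Mcm2 probe set, with a difference of -0.50, wild type array 2 stood at 5688 and knockout array 1 at 7639, so the gap seen with the brighter one was not there.

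Mcm4 and Mcm6 had probe sets in which the arrays lay differently. The second Mcm4 probe set (1416214_at) had 6952, 3523, 3403, 6445 and 6281 on knockout arrays, against 6545 and 7133 on wild type arrays. It gave -0.43 where the brighter one gave 0.05, and -0.06 against 0.18 without knockout arrays 2 and 3. The second Mcm6 probe set (1438852_x_at) had 6209 and 6017 on knockout arrays 4 and 5, above both wild type arrays at 5456 and 4729, and differed by -0.18 over all arrays. The suffix x in a probe set name marks probes that may also bind other transcripts, by the array maker's convention.

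The dimmest probe sets of Mcm6 and of Cdt1 were under the signal filter and were not tested. The Mcm6 one (1447756_x_at) read 5.0 to 20.7 on knockout arrays, against 1.9 and 1.4 on wild type arrays, so that all knockout arrays were higher there. The Cdt1 one (1455791_at) read 1.2 to 4.4 on knockout arrays, against 1.3 and 2.2 on wild type arrays. All these values but the highest 2 of Mcm6 lie under 20.2, the 20th percentile of all signals in the table, where single values carry little weight.

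**Figure D2:**
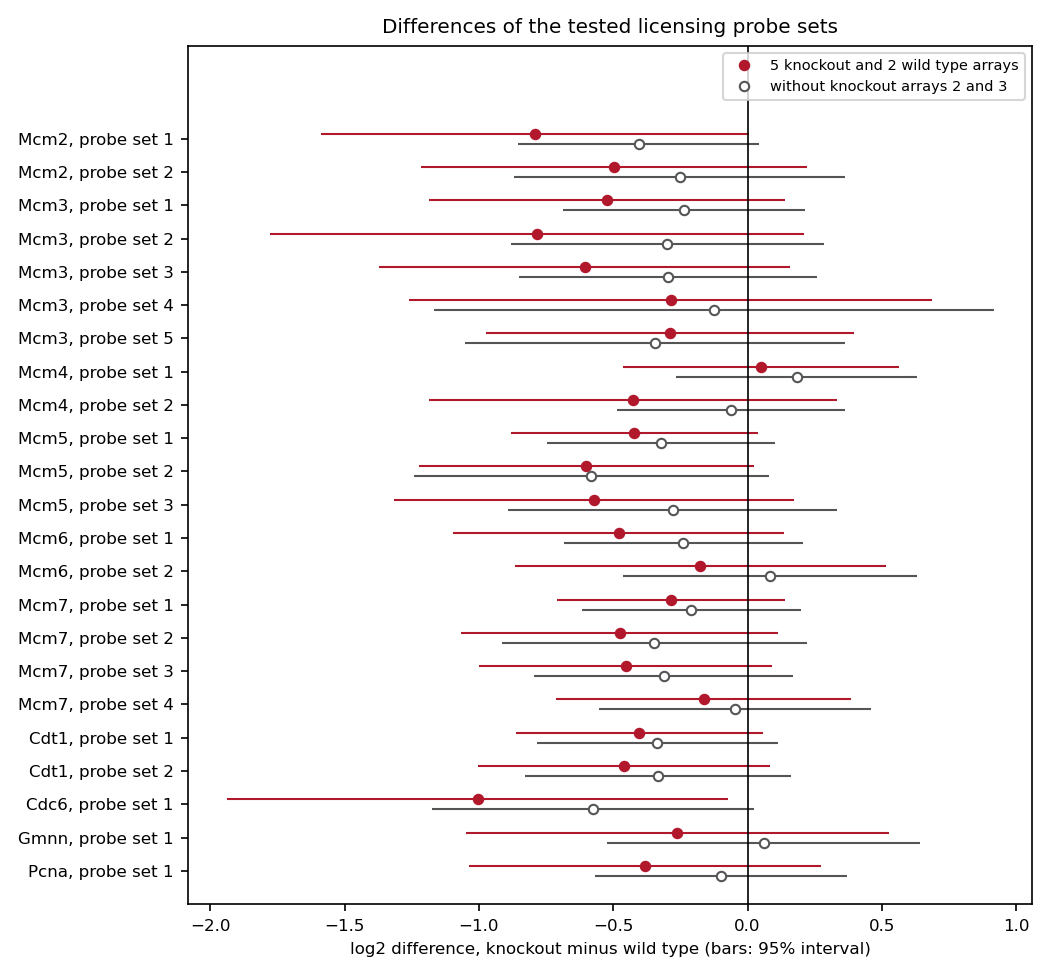
Log2 difference, knockout minus wild type, of the 23 tested licensing probe sets with unadjusted 95% limma intervals; probe sets of a gene are numbered by brightness, filled points use all 7 arrays and open points leave out knockout arrays 2 and 3. With all arrays 22 of 23 points lie left of 0, and only the interval of Cdc6 does not cross it; the open points lie nearer to 0 in most rows, and 20 of 23 are left of it.

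Much of the size of these differences came with knockout arrays 2 and 3. They were the lowest 2 of the 7 arrays for 8 of the 10 members, where this held for 26% of all genes, and they were the highest 2 for 24.6% of all genes. The exceptions were Mcm7 and Cdt1, with the lowest signal on knockout array 5. The median of the 10 genes, each set against its wild type mean, was -0.71 and -0.83 on knockout arrays 2 and 3, and -0.28, -0.14 and -0.37 on arrays 1, 4 and 5. On the wild type arrays it was 0.05 and -0.05, so the median of every knockout array lay under both.

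Without knockout arrays 2 and 3 the direction stayed and the size shrank. In that fit 9 of 10 genes had a negative difference, where 51.3% of all genes did. The exception was then Gmnn, since Mcm4 was represented there by its other probe set. With its probe set of the main fit Mcm4 was positive as well, at 0.18, so the 9 rests on that change. The median was -0.24 for the members and -0.01 for all genes. With limma 0 of 10 passed the adjusted threshold (adjusted p from 0.770 to 0.963), which 0.00755% of genes passed, and 0 of 10 had an unadjusted p under 0.05, where 2.72% of genes were lower.

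Other measures moved with knockout arrays 2 and 3. For Actb, the log2 ratio of the control probe sets at the 3′ and 5′ ends of the transcript was 0.79 and 0.89 on them, 1.53 to 1.94 on the other knockout arrays, and 1.46 and 2.08 on wild type arrays. This ratio was lowest on them for the Gapdh (-0.31 and -0.27), Lys (0.70 and 1.02) and Dap (0.18 and 0.44) controls too. Gapdh lay close by on knockout array 1, at -0.17, and Dap was at 0.88 on knockout array 5. For each control the ratio was highest on knockout array 4 and wild type array 2, at 2.32 and 2.26 for Lys. Whether these ratios reflect the cells' RNA or its processing was not tested. Fibroblast or feeder markers, of which 9 of 10 were found by name and 7 passed the filter, summed to 3857 and 3664 on knockout arrays 2 and 3 and to 605 to 1093 on knockout arrays 1, 4 and 5. The wild type sums were 1375 and 1160.4, and no marker was under 20.2 on all arrays. Dcn, a matrix proteoglycan gene of fibroblasts, read 552 and 555 on knockout arrays 2 and 3 and 13.4 to 14.5 on the other 3, against 55.6 and 27.5 on wild type arrays. Col1a1, Col1a2, Col3a1, Pdgfrb and Postn were also highest on knockout arrays 2 and 3, and Col1a2, at 1519 and 1443, was the largest part of the sums. Thy1 was not, at 310 and 292 there, against 403 on knockout array 4 and 405 on wild type array 1. Lum on knockout array 2 and Fap on both were exceeded by another knockout array. On knockout arrays 1, 4 and 5 the fibroblast sum was below both wild type sums. The 6 members named above were lower there too, which follows from their being picked as lower on all 5 knockout arrays. The part of these measures in the licensing result was not tested.

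The 10 stem cell markers were of mixed sign. They summed to 80380.5 to 112543 on knockout arrays, against 83531 and 98323 on wild type arrays, with a median difference of 0.06 and 4 of 10 negative. Pou5f1, the pluripotency factor Oct4, read 4891 and 4687 on knockout arrays 2 and 3 and 8770 to 11549 on the other knockout arrays, against 11726 and 10184 on wild type arrays. Tdgf1, the Nodal co-receptor Cripto, lay the other way, at 14287 and 15929 on knockout arrays 2 and 3 and 10428 to 11866.5 on the other knockout arrays, against 10711 and 10997 on wild type arrays. Other lineage markers were dim: the endoderm list summed to 367 to 857 on knockout arrays, against 668 and 1135.5 on wild type arrays, and Afp was under 20.2 on every array. The neural list summed to 781 to 1015 on knockout arrays, against 1484 and 1207 on wild type arrays, and the mesoderm list to 288 to 564, against 684 and 427.

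The rest of the replication machinery was read from 7 lists with 97 genes, of which 94 were tested. With limma 0 of 94 passed the adjusted threshold in either direction, and 4 had an unadjusted p under 0.05, where 3.4% of all genes were lower and 4.66% higher at that threshold. In all, 60 of 94 were negative, where 50.3% of all genes were, and the median difference was -0.15. Every knockout array was below both wild type arrays for 17, where this held for 7.44% of all genes, and above both for 2, where this held for 6.41%. The same shares of all genes apply to the counts of the single lists below. The lists did not lie alike, and no set test was made between them.

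For the genes that act before helicase loading the differences were of mixed sign. In the list of origin recognition 4 of 7 were negative with a median of -0.09, and 0 had all knockout arrays on one side. Its brightest members were Lrwd1, a protein that holds the complex on chromatin (-0.27, limma adjusted p = 0.679), and Orc5 (0.24, adjusted p = 0.738). Orc4 (0.52, adjusted p = 0.607) and Orc1, the subunit that leaves the complex in the cell cycle of mammalian cells (-0.37, adjusted p = 0.642), were at its ends. Orc4 had 599 on wild type array 1 and 1441 on wild type array 2, the latter within the knockout range. Orc5 was at 0.13 and Orc1 at -0.23 without knockout arrays 2 and 3.

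Genes that turn the loaded helicase into a moving fork had mixed signs too. In the list of helicase activation 6 of 13 were negative with a median of 0.11. All knockout arrays were below both wild type arrays for 3 of the 13, where 7.44% of all genes were, and above both for 1, where 6.41% were. Dbf4, the activating subunit of the Cdc7 kinase, differed by 0.42 (limma adjusted p = 0.613) and Topbp1, a scaffold for origin firing, by 0.52 (adjusted p = 0.597). For both, wild type array 1 was the outlying value, at 2979 for Dbf4 and 2015 for Topbp1, and each turned negative without it (-0.09 and -0.10). Gins4, a subunit of the GINS complex that joins the MCM ring, was below both wild type arrays on every knockout array (-0.54, adjusted p = 0.589). Ticrr, the firing factor also called treslin, was at the other end (0.62, adjusted p = 0.627). It had 546 on wild type array 1 and 1268 on wild type array 2, the latter within the knockout range. Gins4 was at -0.31 without knockout arrays 2 and 3.

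Relatives of the helicase and control genes were also of mixed sign. Of the other MCM proteins 3 were tested, and Mcmbp, an MCM-binding protein, stood at -0.03 and Mcm8, a helicase of recombination repair, at 0.40 (limma adjusted p = 0.968 and 0.700). Mcm8 had 262 on wild type array 1 and 622 on wild type array 2, the latter within the knockout range. In the list of relicensing control and turnover 5 of 12 were negative with a median of 0.06. Of the 12, 1 had all knockout arrays below both wild type arrays and 1 above both. Skp1, a core subunit of the SCF ubiquitin ligase, differed by -0.57 and Ddb1, an adaptor of the Cul4 ligase that destroys Cdt1, by -0.47. Cul4a, a scaffold of that ligase, differed by 0.49 with all knockout arrays above both wild type arrays, and Cks1b by -0.10 (limma adjusted p from 0.593 to 0.842 for the 4 genes). Skp1 was at -0.18, Ddb1 at -0.21, Cks1b at -0.04, Mcm8 at 0.24 and Mcmbp at 0.10 without knockout arrays 2 and 3.

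The genes of the moving fork, such as polymerases, clamp loader and ligase, were negative for 22 of 28, where 50.3% of all genes were, with a median of -0.21. In that list 6 had all knockout arrays below both wild type arrays, where 7.44% of all genes did. Rpa1, the large subunit of the single-strand binding protein, had 11451, 8262, 7717, 14079 and 10912 on knockout arrays, against 17283 and 15786 on wild type arrays. Its difference was -0.69 (unadjusted p = 0.0257 and adjusted p = 0.589 with limma), and no knockout array reached the wild type pair. Lig1, the ligase that joins Okazaki fragments, differed by -0.73 (adjusted p = 0.589) and Tipin, of the fork protection complex, by -0.44 (adjusted p = 0.639). Pola1, the catalytic subunit of polymerase alpha, was at the other end at 0.51 (adjusted p = 0.686), and turned to -0.29 without wild type array 1. Rpa1 was at -0.45, Lig1 at -0.42, Tipin at -0.10 and Pola1 at 0.84 without knockout arrays 2 and 3.

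Genes of nucleotide supply and S phase entry had a median of -0.37, the lowest of the 7 replication lists. In it 10 of 14 were negative and 5 were below both wild type arrays on every knockout array, where 50.3% and 7.44% of all genes were. Rrm2, a subunit of ribonucleotide reductase, had 9346, 6057.5, 5938, 9952 and 8783 on knockout arrays, against 10844.5 and 10198 on wild type arrays, a difference of -0.42 (limma adjusted p = 0.597). Tk1, thymidine kinase, differed by -0.94 (adjusted p = 0.589) but overlapped, since knockout array 1 at 1846.5 exceeded wild type array 2 at 1842.5. Of the cyclin E genes, Ccne1 stood at -0.15 (adjusted p = 0.817) and Ccne2 at 0.84 (adjusted p = 0.589). Ccne2 had 253 on wild type array 1 and 653.5 on wild type array 2, the latter within the knockout range of 581 to 910. Rrm2 was at -0.17 and Tk1 at -0.61 without knockout arrays 2 and 3.

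Mitosis genes gave a median of -0.12 with 12 of 17 negative, which turned to 0.12 with 6 of 17 negative without knockout arrays 2 and 3. Cdc20, an activator of the anaphase-promoting complex, was below both wild type arrays on every knockout array (-0.34, limma adjusted p = 0.591), as was Birc5, which encodes survivin (-0.85, adjusted p = 0.589). Top2a stood at -0.12 (adjusted p = 0.880) and Bub1 at 0.71 (adjusted p = 0.598), where Bub1 had 1533 on wild type array 1 and 6499 on wild type array 2. In the fit without knockout arrays 2 and 3 Birc5 was at -0.35, Cdc20 at -0.23 and Top2a at 0.12. Without knockout arrays 2 and 3 the medians of the fork list and of the nucleotide supply and S phase entry list were -0.12 and -0.18, and those of origin recognition, helicase activation and relicensing control were 0.11, 0.02 and 0.13.

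**Figure D3:**
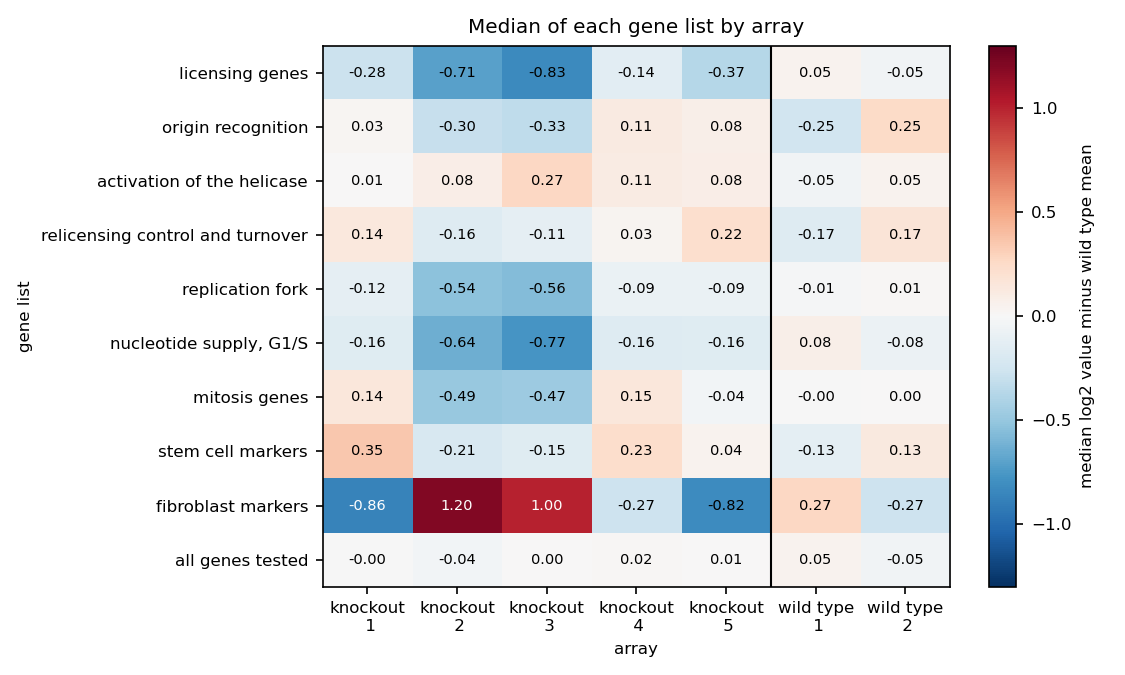
Median over the genes of each list of the log2 value minus that gene's wild type mean, on each of the 7 arrays (columns, knockout left of wild type), with the colour scale in log2 units. The licensing genes have -0.71 and -0.83 on knockout arrays 2 and 3 and -0.28, -0.14 and -0.37 on the other knockout arrays, while the fibroblast markers have 1.20 and 0.999 on arrays 2 and 3.

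The helicase subunits were also compared with one another and with all genes by their values over the 7 arrays. Each gene's log2 values were centred on their mean, and the distance is the root mean square difference from the mean profile of Mcm2 to Mcm7. The values were not scaled, so the distance holds the size of a gene's changes as well as their shape. That profile was 0.06, -0.40, -0.44, 0.20 and 0.01 on knockout arrays and 0.38 and 0.21 on wild type arrays. Mcm6 was nearest among the subunits at 0.0777, followed by Mcm5 at 0.117, Mcm3 at 0.123 and Mcm7 at 0.169. Mcm4 at 0.255 and Mcm2 at 0.263 were the farthest. Outside the helicase, Cdt1 lay at 0.164, Pcna at 0.215, Gmnn at 0.291 and Cdc6 at 0.396, against a median of 0.430 over all genes. Mcm2 and Cdc6 had the largest differences of the members, and such genes can lie far off even where their shape is alike. The subunits also enter the mean profile themselves, which draws their own distances down.

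Many other genes lay near this profile by that distance. In all, 2583 genes other than the members lay as near to the profile as Mcm2. Genes that vary little over the arrays can be among them, so the count does not show that the shape is common. The nearest 5 were Hmgb3, a chromatin protein of the HMG box family (0.0369), Rhno1, a partner of the 9-1-1 checkpoint clamp (0.0380), Hpcal1, a calcium-sensing protein (0.0440), Smdt1, a subunit of the mitochondrial calcium uniporter (0.0525), and Nsun2, an RNA methyltransferase (0.0536). Their log2 differences ran from -0.46 for Hmgb3 to -0.36 for Rhno1, with limma adjusted p from 0.591 to 0.642, and without knockout arrays 2 and 3 from -0.28 for Hmgb3 to -0.17 for Hpcal1. The distance is a description over 7 arrays of which 2 stand apart.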

How the data were processed

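The table holds intensities, 1 linear signal per probe set and array, which the authors made with MAS5, according to the submitters' processing notes; its version and settings are not given in the sources used here. With the lowest and highest 2% of values left out, each array averaged 500.0, so the deposited arrays were already scaled. Their medians differed by a ratio of 1.35, and no further normalization was applied.

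Signals were taken as log2(signal + 20.2), the addend being the 20th percentile of all values, which understates differences of dim probe sets. After removal of 64 control probe sets, 27022 with a mean above the 40th percentile were tested. For each gene the brightest probe set with 1 symbol in the platform annotation was used, with symbols updated through RefSeq (13120 genes). Groups, taken from the sample labels, were compared by limma 3.58.1 under R 4.3.3 (two-sided, empirical Bayes with a trend, Benjamini-Hochberg over all features); intervals are unadjusted. The number of arrays limits the precision. The fit was tested on simulated data. Promoters came from RefSeq, and figures were drawn with matplotlib 3.10.9.

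Members and lists were chosen with earlier results of these data known. Named were all members, Calr, the 2 brightest genes and those with the highest and lowest difference of each list, and the 5 genes nearest in profile. Dcn, Pou5f1, Tdgf1 and the fibroblast markers named beside Dcn were chosen after their values were seen. Mcmdc2, Ccnb1, Fbn1 and T were not matched by name. Alternatives were other normalizations, pseudocounts, filters and variance models, array weights, the mean of all probe sets, a replicate block, and the omission of arrays.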

Additional observations from a re-analysis of the deposited data

Results flagged for a closer look

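Among the 5 knockout arrays, 1 value stood far from the other 4 in 2 of the 25 member probe sets, by Dixon's criterion at the 95% level, which chance meets in about 1 of 20 groups. In the fourth Mcm3 probe set (1426653_at) knockout array 1 read 1991, while knockout arrays 2 to 5 read 938 to 1100 and the wild type arrays 2264 and 849.5. The brighter Mcm3 probe sets had no such value. In the Cdt1 probe set under the signal filter (1455791_at) knockout array 4 read 4.4, with the other knockout arrays at 1.2 to 1.9 and the wild type arrays at 1.3 and 2.2.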

How the results depend on the processing

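In the 18 alternatives 0 member genes and 0 pathway genes passed limma's adjusted threshold, and neither did a member probe set where these were fitted; the lowest adjusted p of a member was 0.350. Mcm2, Mcm3, Mcm5, Mcm6, Mcm7, Cdt1, Cdc6 and Pcna had a negative difference in all 18. The number of members with every knockout array below both wild type arrays was 6, but 2 after quantile normalization and 5 with median centring. It was 4 with the mean of all probe sets (Mcm2, Mcm5, Cdt1 and Cdc6). Leaving out 1 array gave 6 to 7, and 8 to 10 negative differences. For a given probe set a gene cannot leave that number when an array is removed, so the 6 to 7 is no check. Without knockout array 4 the 6 held Mcm3 in place of Mcm2, as the brightest probe set was chosen anew. Centring on array medians moved the median of all genes to -0.12 and that of the members to -0.53.

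Of 180 member values 9 changed sign, all of Mcm4 and Gmnn. Mcm4 was -0.068 with median centring, -0.19 with the mean of its probe sets and -0.060 without knockout arrays 2 and 3. It ran from -0.30 to 0.084 when 1 array was left out. The brightest probe set of a gene was chosen anew in each setting. Without knockout arrays 2 and 3 Mcm4 was thus read by its second probe set (1416214_at), while its first gave 0.18. The range with 1 array left out can likewise mix both probe sets, so it is not the effect of arrays alone. Gmnn was 0.060 without knockout arrays 2 and 3 and ran from -0.65 (without wild type array 1) to 0.12 (without wild type array 2). For 13 other named genes 22 of 558 values changed sign. Quantile normalization gave 0.10 for Cks1b and 0.078 for Top2a, and array weights gave 0.064 for Mcmbp. Without knockout arrays 2 and 3 Mcmbp was 0.10 and Top2a 0.12. The mean of all probe sets gave 0.033 for Orc1, -0.036 for Ticrr, 0.56 for Mcmbp and 0.19 for Top2a. Leaving out 1 array, with a lone wild type array assumed to vary like the knockout arrays, gave -0.014 to 0.49 for Orc5, -0.10 to 1.14 for Orc4, -0.086 to 0.92 for Dbf4, -0.10 to 1.14 for Topbp1, -0.25 to 0.19 for Mcmbp, -0.19 to 0.996 for Mcm8, -0.29 to 1.31 for Pola1, -0.43 to 0.13 for Ccne1, -0.44 to 0.20 for Top2a and -0.32 to 1.75 for Bub1. Where no probe set changed, the cause of a change of sign was not tested.

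With the replicate number as a block, in which only the numbers 1 and 2 hold both groups, 42 genes passed against 2 without it, 0 of them members; the median of the members was -0.42, Mcm4 was -0.056 and Mcmbp 0.0023, and 10 of 10 members were negative. Deviations of same-numbered samples correlated at 0.11 and -0.01, and no label says that a number marks a shared batch or day; whether one was shared is not known.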
